A study of Homo sapiens with 6 samples.

Results

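The tumour necrosis factor (TNF) superfamily is a set of membrane-bound or shed ligands and the receptors that bind them. All genes whose symbols begin with TNFSF or TNFRSF were taken, together with TNF, LTA, LTB, CD27, CD40 and EDAR, without TNFRSF1A and TNFRSF10A to TNFRSF10D. Of 18132 genes with a probe set of their own, 31 met this rule, 13 ligand and 18 receptor genes, on 62 probe sets. A probe set is a group of array probes for one transcript or gene. TNFSF13 and TNFRSF6B had only probe sets that also match a readthrough transcript and are given apart. The family genes CD70, CD40LG, FASLG, EDA, FAS, NGFR, LTBR, RELT and EDA2R carry other symbols and are not members.

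Cells of the T24 line, an established human urothelial bladder carcinoma line grown in DMEM with 10% serum, were profiled on 6 Affymetrix arrays. In 3 samples the cells had received MAP30, a ribosome-inactivating protein of bitter melon (Momordica charantia), at 10 µg/ml for 48 hours. The other 3 are control T24 cells, and the labels do not say what these received instead. Whether replicates were grown apart is not stated either, so the spread behind each p-value may be technical.

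Superfamily ligands act mostly as trimers that cluster their receptors. The receptors then recruit TRAF adaptors, which lead to NF-kB and MAP kinases, or, where they hold a death domain, adaptors such as TRADD. Many ligands and receptors were first described in lymphocytes, where they regulate activation and survival, and several also act in epithelia, bone and skin. Decoy receptors bind ligands without signalling.

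Values are the authors' log2 expression, in which each probe set had been centred on its median over the 6 arrays. A gene's value is the mean over its probe sets. Only differences between arrays have meaning: no member can be called abundant, scarce or undetected, and 2 genes' levels cannot be compared. For the same reason the T24 label could not be checked by marker levels. In bulk RNA, fewer cells of a type and less RNA per cell cannot be told apart.

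Of the superfamily, the receptor gene TNFRSF9 showed the largest difference, 16.4-fold higher with MAP30, followed among receptors by TNFRSF19 (3.79-fold) and TNFRSF12A (2.65-fold). TNFSF9, the ligand of TNFRSF9, was 1.66-fold higher. TNFRSF11B, which encodes the decoy receptor osteoprotegerin, was 3.36-fold lower, and the ligand gene TNFSF12 was 2.05-fold lower. These 6 were the members called with at least a 1.5-fold change. Genes were called at an adjusted p under 0.05 by limma, a linear model with moderated variances fitted over all genes, with Benjamini-Hochberg adjustment.

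Among the 13 ligand genes 4 were higher and 3 lower, and among the 18 receptor genes 6 were higher and 4 lower. In all, 17 of 31 members (54.8%) were called, 7 ligands and 10 receptors, against 57.5% of all genes tested, where 26.9% were higher and 30.6% lower. The share of the family is thus near the background. A call with 1.5-fold or more was found for 6 members (19.4%), 4 higher and 2 lower, against 22.1% of all genes, 11.2% higher and 10.9% lower. The groups of 3 arrays did not overlap in 19 members (61.3%), against 62.6% of all genes.

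The median log2 difference was 0.05 over ligands, 0.05 over receptors and -0.02 over all genes, on the deposited scale; both family medians fell below 0, to -0.16, when arrays were centred on their hybridization controls. Differences ran from -1.75 to 4.04 among receptors and from -1.03 to 0.73 among ligands. A difference at least as large as that of TNFRSF9 was found in 17 genes, TNFRSF9 itself included, 0.0938% of those tested.

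**Figure D1:**
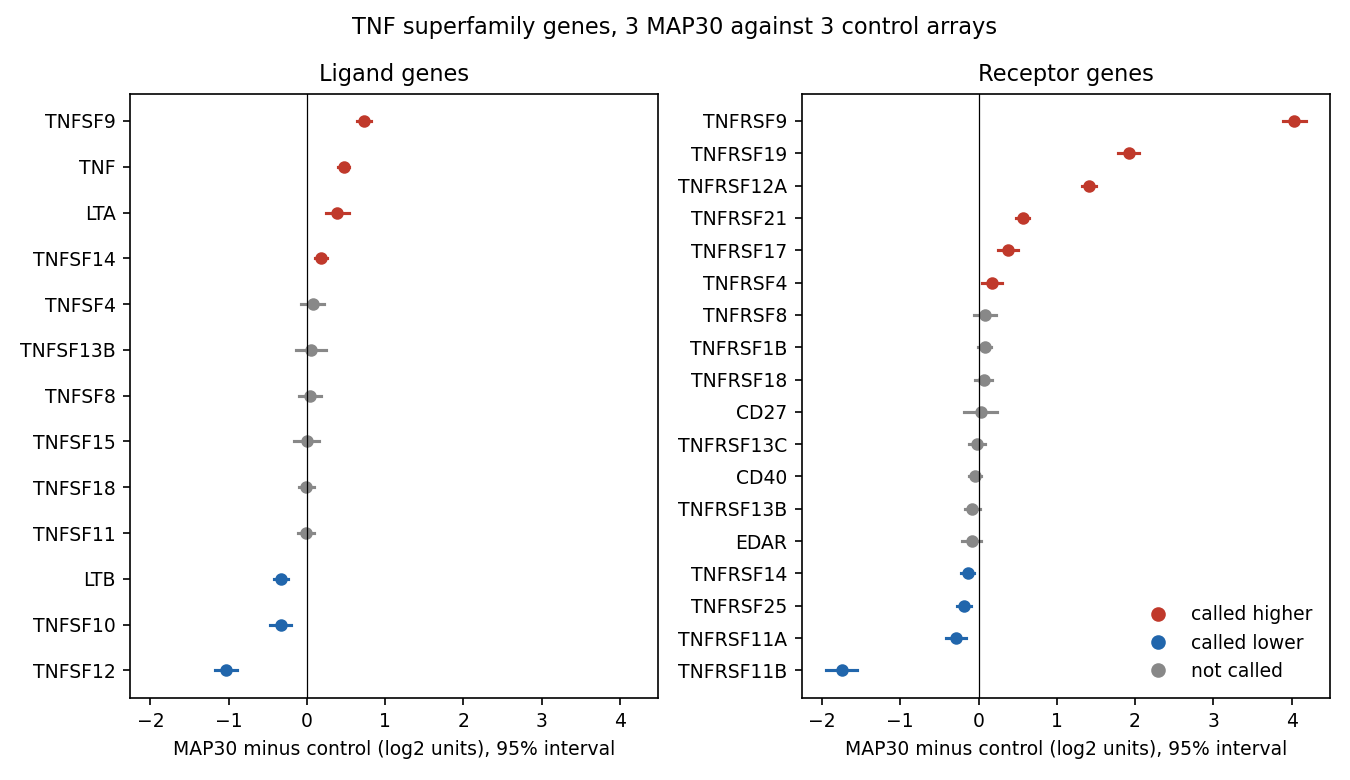
Log2 difference of MAP30 minus control for each of the 13 ligand genes (left) and 18 receptor genes (right); points are fitted differences, lines 95% intervals from limma, n = 3 arrays per group. TNFRSF9 stands at 4.04 and TNFRSF11B at -1.75, while ligands lie between -1.03 and 0.73; the smallest calls (TNFSF14 and TNFRSF4 higher, TNFRSF14 lower) change sign with another scaling.

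Centring arrays on spiked-in RNAs shifts every gene alike, and gave 2 other scalings. Hybridization controls, added before hybridization, were higher with MAP30 by a mean of 0.21 over 18 probe sets. Poly-A controls, added to the RNA sample, differed by -0.16 over 24. Centring on them moved the median of all genes to -0.23 and 0.14. Over all genes, 3087 were then called higher and 11558 lower with hybridization-control centring, and 8906 higher and 3754 lower with poly-A-control centring, against 4878 and 5553 as deposited. Of the 17 called members, 13 kept their call and direction in every alternative fit that measured them and changed the scaling, the probe set summary, the variance model, the block or the arrays: 8 higher (TNFRSF9, TNFRSF19, TNFRSF12A, TNFRSF21, TNFRSF17, TNFSF9, TNF and LTA) and 5 lower (TNFRSF11B, TNFRSF11A, TNFSF12, TNFSF10 and LTB). TNFRSF11A, whose 1 probe set is of class _x_at, was not in the fit on probe sets of class _at or _a_at. The exceptions were TNFRSF4, TNFRSF14, TNFRSF25 and TNFSF14. LTA and LTB, with 1 of 2 probe sets called each, did not meet a rule that most probe sets be called.

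**Figure D2:**
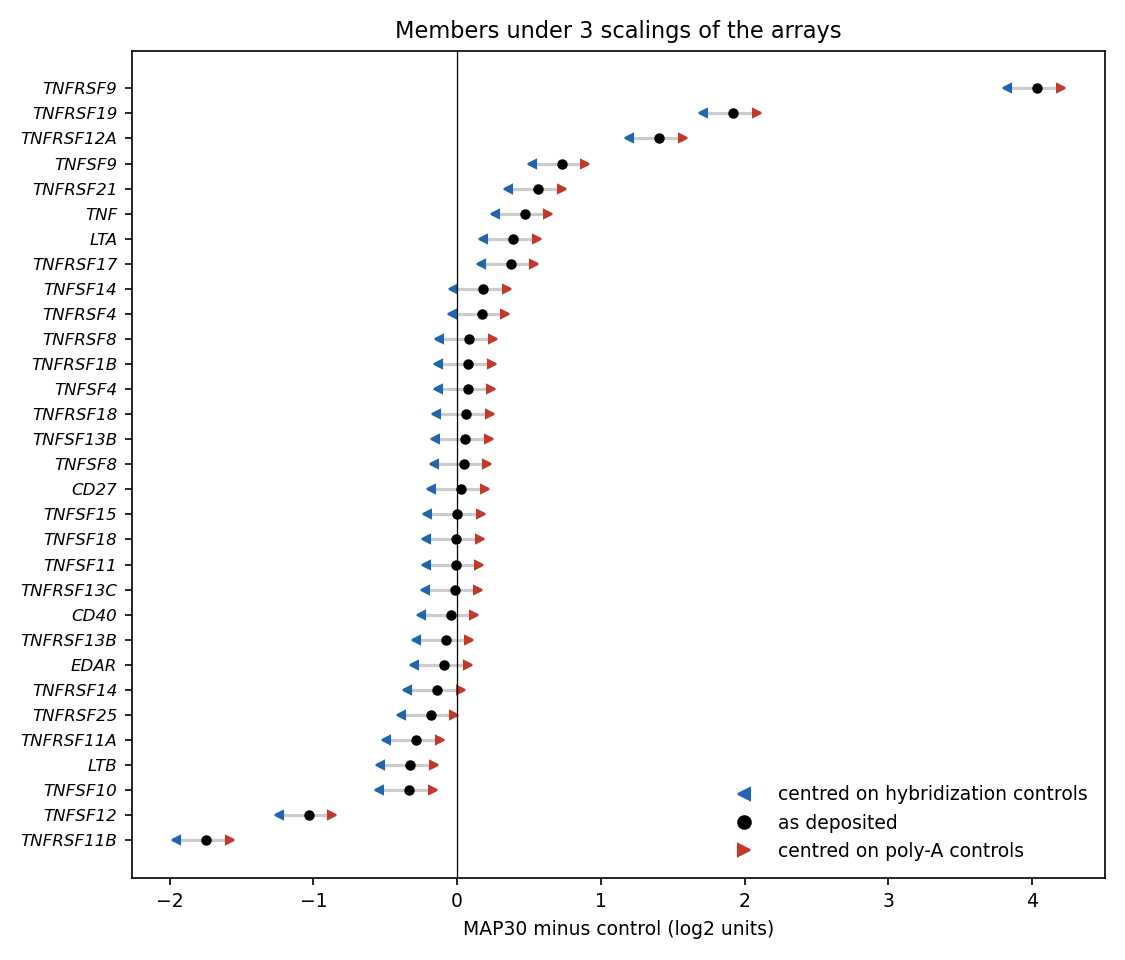
Log2 difference of MAP30 minus control for each of the 31 members as deposited (black circles) and with arrays centred on hybridization controls (blue triangles) or poly-A controls (red triangles). The 3 marks of TNFRSF9 lie between 3.83 and 4.20, whereas those of TNFSF14, TNFRSF4 and TNFRSF14 lie on both sides of 0.

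The promoter sequences of TNFRSF9, its ligand gene TNFSF9 and TNF are shown. These members rose and their promoters held a searched motif. In TNFSF9 and TNF this was only the TATA box, added to the search after the promoters had been seen. TNFSF14, which also rose (0.18) and held AP-1 and NF-kB matches, is not shown. Its call was lost with hybridization-control centring. Each is the 250 bases before the gene's start in RefSeq (GRCh38.p14), written along the gene's strand. Capitals mark matches to the AP-1 motif (TGANTCA), the NF-kB motif or TATAAA, the letters of a TATA box, all searched on both strands.
TNFRSF9, chr1:7940840-7941089, minus strand: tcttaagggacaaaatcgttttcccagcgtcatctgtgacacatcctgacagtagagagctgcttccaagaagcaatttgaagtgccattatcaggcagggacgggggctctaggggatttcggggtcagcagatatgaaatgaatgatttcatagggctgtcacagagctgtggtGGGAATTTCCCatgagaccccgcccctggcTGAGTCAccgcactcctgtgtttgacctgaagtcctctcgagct
TNFSF9, chr19:6530776-6531025, plus strand: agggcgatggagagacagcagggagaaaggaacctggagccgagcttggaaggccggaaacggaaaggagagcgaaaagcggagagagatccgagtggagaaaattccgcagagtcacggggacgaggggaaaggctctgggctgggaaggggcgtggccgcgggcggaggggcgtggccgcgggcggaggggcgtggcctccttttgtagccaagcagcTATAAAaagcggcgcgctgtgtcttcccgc
TNF, chr6:31575315-31575564, plus strand: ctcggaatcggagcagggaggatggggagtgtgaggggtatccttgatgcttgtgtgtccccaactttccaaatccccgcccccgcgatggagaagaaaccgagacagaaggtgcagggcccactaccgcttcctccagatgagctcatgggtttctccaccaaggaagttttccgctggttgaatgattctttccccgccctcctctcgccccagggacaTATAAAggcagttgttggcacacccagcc

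In TNFRSF9 the AP-1 match lay 38 to 44 bases before the start. Its 2 NF-kB matches overlapped on opposite strands, 64 to 74 bases before the start. TNFSF9 and TNF had neither motif in this window, and each had a TATAAA match, 25 to 30 bases before the start in TNFSF9 and 24 to 29 in TNF. RefSeq promoters were matched for 22 of the 31 members. A single promoter was kept per member, while the background counts every listed promoter, so the shares are not like for like. For some members, such as TNFSF14, TNFSF15 and TNFRSF14, the promoter kept lies within the gene's outer bounds. The AP-1 motif was in 4 of these 22 (CD27, TNFRSF9, TNFSF14 and TNFSF15) and in 6.57% of all 35116 promoters. The NF-kB motif was also in 4 (LTB, TNFRSF9, TNFRSF14 and TNFSF14) and in 9.96% of all. The letters TATAAA were in TNF, TNFSF9, TNFSF10 (26 to 31 bases before the start) and TNFRSF18 (245 to 250), and in 10.7% of all. TNFRSF9 and TNFSF14 held both AP-1 and NF-kB matches, and their log2 differences were 4.04 and 0.18. A match describes the letters only and shows no binding. The lack of a match does not exclude sites whose letters differ from the searched motif.

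TNFRSF9, also called CD137, is a costimulatory receptor of activated T and NK cells. Its centred log2 values were 1.93, 2.12 and 2.01 in the MAP30 arrays, against -1.93, -2.10 and -2.02 in the control arrays. The groups lay far apart and varied little within themselves. The log2 difference was 4.04 ± 0.06 (SE, n = 3 per group; limma adjusted p = 9.51e-09), on 1 probe set. Quantile normalization gave 3.24.

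TNFSF9, its ligand, stood at 0.34 in each of the 3 MAP30 arrays, against -0.32, -0.42 and -0.41 in the control arrays. Its difference was 0.73 ± 0.04 (SE, n = 3 per group; limma adjusted p = 1.59e-06). Both of its probe sets were higher, by 0.87 and 0.58. Ligand and receptor of this pair thus rose in the same arrays, the receptor by far the more.

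TNFRSF12A encodes Fn14, a small receptor that growth factors and injury induce in many tissues. Its values were 0.66, 0.73 and 0.71 in the MAP30 arrays, against -0.66, -0.72 and -0.73 in the control arrays. The fitted difference was 1.41 ± 0.04 (SE, n = 3 per group; limma adjusted p = 6.89e-08). TNFSF12 encodes TWEAK, the ligand of Fn14. Here the MAP30 arrays were low, at -0.51, -0.43 and -0.47, against 0.61, 0.65 and 0.43 in the control arrays. It fell by 1.03 on the log2 scale (limma adjusted p = 2.65e-06). In this pair the receptor gene was higher and the ligand gene lower, without overlap between groups in either.

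TNFSF13, which encodes APRIL, lies next to TNFSF12, and readthrough transcripts join them. Its 2 probe sets, shared with that readthrough transcript, were lower by -0.81 and -0.76 (limma over single probe sets, adjusted p = 4.45e-05 and 1.08e-04), where 56.3% of all probe sets were called. Transcripts of TNFSF13 and the readthrough cannot be separated on these probe sets.

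TNFRSF19, also called TROY, is a TRAF-binding receptor of epithelial and neural progenitor cells. Averaged over its 3 probe sets it had 0.85, 0.89 and 0.98 in the MAP30 arrays, against -0.97, -1.12 and -0.96 in the control arrays. The difference was 1.92 ± 0.06 (SE, n = 3 per group; limma adjusted p = 1.07e-07). Its probe sets agreed in direction but not in size. One showed 3.00, and the others 1.48 and 1.28, so the gene's value depended on the summary: 1.52 with the median of the probe sets and 1.38 without the probe set of class _s_at, a class whose probes may match several transcripts.

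**Figure D3:**
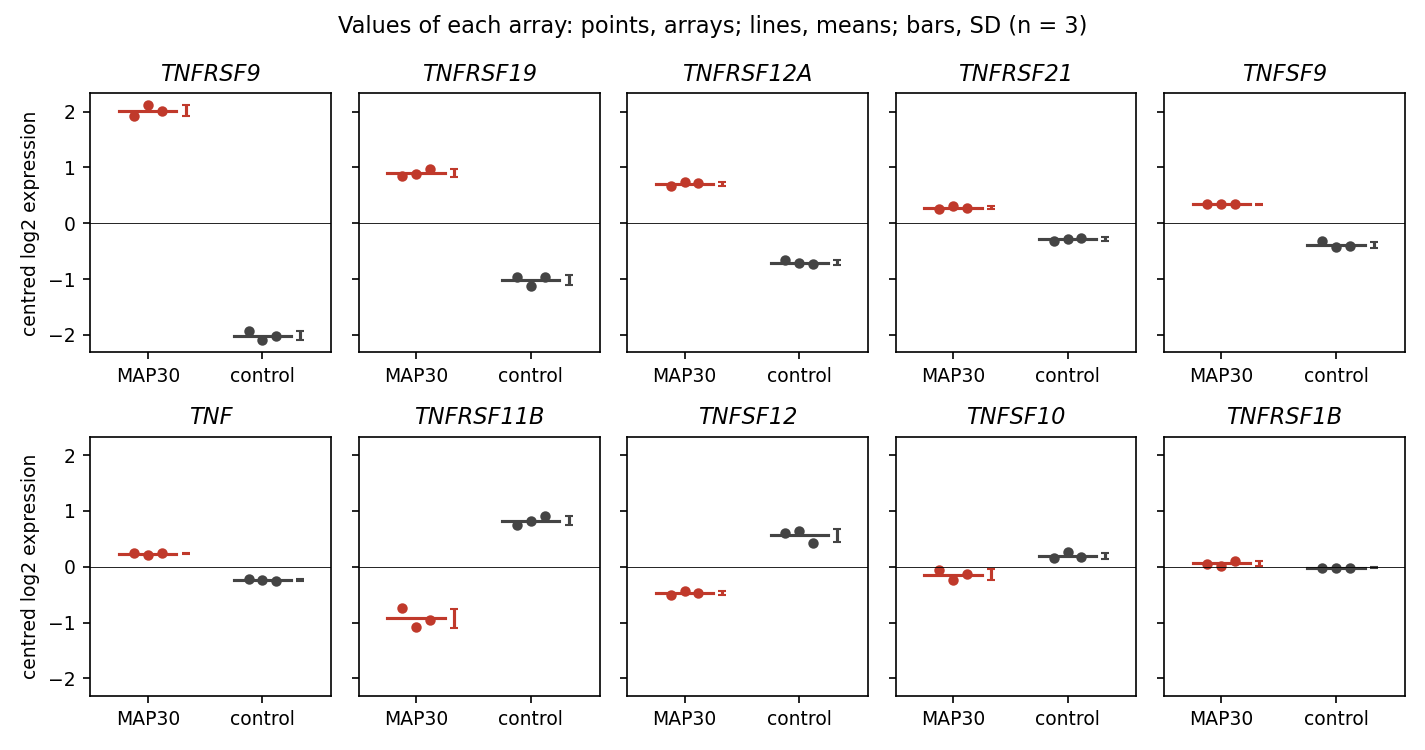
Centred log2 expression of 10 members in each array (points), with the mean (line) and SD (bar) of 3 MAP30 (left) and 3 control (right) arrays in each panel. The groups are separate in each of the 10 panels, by far the most in TNFRSF9; TNFRSF1B is shown as a member that was not called.

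TNFRSF21, or death receptor DR6, carries a death domain. It stood at 0.25, 0.31 and 0.28 in the MAP30 arrays, against -0.32, -0.28 and -0.26 in the control arrays. The difference of 0.56 ± 0.04 (SE, n = 3 per group; limma adjusted p = 4.13e-06) lay just under 1.5-fold. All 3 of its probe sets rose, by 0.41 to 0.70. Of the other members with a death domain, TNFRSF25, the receptor of TNFSF15, was lower by -0.18 (limma adjusted p = 0.0047) and EDAR, at -0.09, was not called (limma adjusted p = 0.176). For TNFRSF25 the call came from 1 of 2 probe sets, at -0.39 against 0.02, and was lost at -0.02 with poly-A-control centring.

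Osteoprotegerin, the product of TNFRSF11B, is a secreted decoy for TNFSF11 (RANKL), the ligand that drives osteoclast formation through its receptor RANK, encoded by TNFRSF11A. TNFRSF11B had -0.74, -1.07 and -0.96 in the MAP30 arrays, against 0.74, 0.82 and 0.90 in the control arrays. MAP30 array 1 was the least low, yet far below every control array. The decoy gene fell by 1.75 on the log2 scale (SE 0.09, n = 3 per group; limma adjusted p = 1.06e-06).

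TNFRSF11A was lower by -0.29 (limma adjusted p = 0.00257), on 1 probe set, of class _x_at. With poly-A-control centring it was lower by -0.12 (limma adjusted p = 0.0474). As deposited, its values were -0.25, -0.21 and -0.07 in the MAP30 arrays, against 0.12, 0.07 and 0.14 in the control arrays. TNFSF11 had 0.04, 0.01 and -0.04 in the MAP30 arrays, against 0.08, -0.01 and -0.04 in the control arrays. The groups overlapped and it was not called (difference -0.01, 95% interval -0.11 to 0.09; limma adjusted p = 0.885). Of this axis, then, the decoy and the receptor were lower, the decoy by more, while no difference in the ligand was detected.

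The other decoy, TNFRSF6B (DcR3), binds TNFSF14, TNFSF15 and FASLG. On 2 probe sets shared with the RTEL1 readthrough transcript it was lower by -1.84 and -1.73 (limma over single probe sets, adjusted p = 7.30e-08 and 8.14e-08). The 5 probe sets of RTEL1 and the same readthrough differed less, from -0.69 to -0.17, and 4 of the 5 were called lower. Transcripts of TNFRSF6B and the readthrough cannot be separated on the shared probe sets.

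TNF, LTA and LTB are neighbouring genes on chromosome 6. TNF encodes the founding cytokine of the family, LTA the soluble lymphotoxin alpha and LTB the subunit that anchors lymphotoxin at the cell surface. TNF had 0.24, 0.22 and 0.24 in the MAP30 arrays, against -0.22, -0.23 and -0.25 in the control arrays. The groups were tight and separate, and TNF was higher by 0.47 ± 0.03 (SE, n = 3 per group; limma adjusted p = 6.12e-06). LTA was higher by 0.39 (limma adjusted p = 0.0011), at 0.25, 0.15 and 0.32 in the MAP30 arrays, against -0.20, -0.21 and -0.04 in the control arrays. That rise came from 1 of its 2 probe sets, which showed 0.80 while the other showed -0.02.

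LTB, at the same locus, was lower. It had -0.17, -0.20 and -0.13 in the MAP30 arrays, against 0.13, 0.21 and 0.15 in the control arrays. LTB fell by 0.33 on the log2 scale (SE 0.04, n = 3 per group; limma adjusted p = 1.42e-04). One of its probe sets was lower by -0.54 and the other, at -0.12, was not called. Adjacent genes of one locus thus differed in opposite directions. TNFRSF1B, the second TNF receptor, had 0.05, 0.02 and 0.10 in the MAP30 arrays, against -0.02, -0.01 and -0.03 in the control arrays. The arrays did not overlap, but it was not called (difference 0.08, 95% interval -0.00 to 0.16; limma adjusted p = 0.0956); it was called at 0.10 with quantile normalization, at 0.24 with poly-A-control centring, and at -0.13 with hybridization-control centring.

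TNFSF10 encodes TRAIL, which triggers death receptors. Its values were -0.05, -0.24 and -0.13 in the MAP30 arrays, against 0.15, 0.26 and 0.17 in the control arrays. It was lower by -0.33 ± 0.06 (SE, n = 3 per group; limma adjusted p = 0.00126). Its 3 probe sets agreed closely, from -0.35 to -0.32, and all were called lower.

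BAFF, encoded by TNFSF13B, sustains B cells through TNFRSF13C, TNFRSF13B and TNFRSF17. TNFSF13B had 0.04, -0.11 and 0.20 in the MAP30 arrays, against 0.06, -0.10 and -0.01 in the control arrays. The arrays scattered within groups as widely as between them (difference 0.06, 95% interval -0.13 to 0.25; limma adjusted p = 0.599). TNFRSF13C (-0.02) and TNFRSF13B (-0.08) were not called either, although 1 of 4 probe sets of TNFRSF13B was lower by -0.18. TNFRSF17, the receptor of plasma cells known as BCMA, was higher by 0.37 (limma adjusted p = 4.72e-04), at 0.15, 0.19 and 0.15 in the MAP30 arrays, against -0.16, -0.32 and -0.15 in the control arrays.

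TNFSF14 (LIGHT) binds TNFRSF14, the receptor HVEM. The ligand was higher by 0.18 (limma adjusted p = 0.00245) and the receptor lower by -0.14 (limma adjusted p = 0.0123), but TNFSF14 stood at -0.03 with hybridization-control and TNFRSF14 at 0.03 with poly-A-control centring, neither called. Of the 7 probe sets of TNFRSF14 2 were lower. Its call was also lost with the median over probe sets (-0.09) and on probe sets of class _at or _a_at (-0.05). TNFSF14 was called on its probe set at 0.20 but not on that at 0.16, and lost its call on probe sets of class _at or _a_at. TNFRSF4, or OX40, was higher by 0.17 (limma adjusted p = 0.0319) and lost the call without control replicate 2 (0.15), control replicate 3 (0.14), MAP30 replicate 1 (0.14) or MAP30 replicate 2 (0.19), and turned to -0.04, uncalled, with hybridization-control centring. Its ligand gene TNFSF4 (0.08) was not called.

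**Figure D4:**
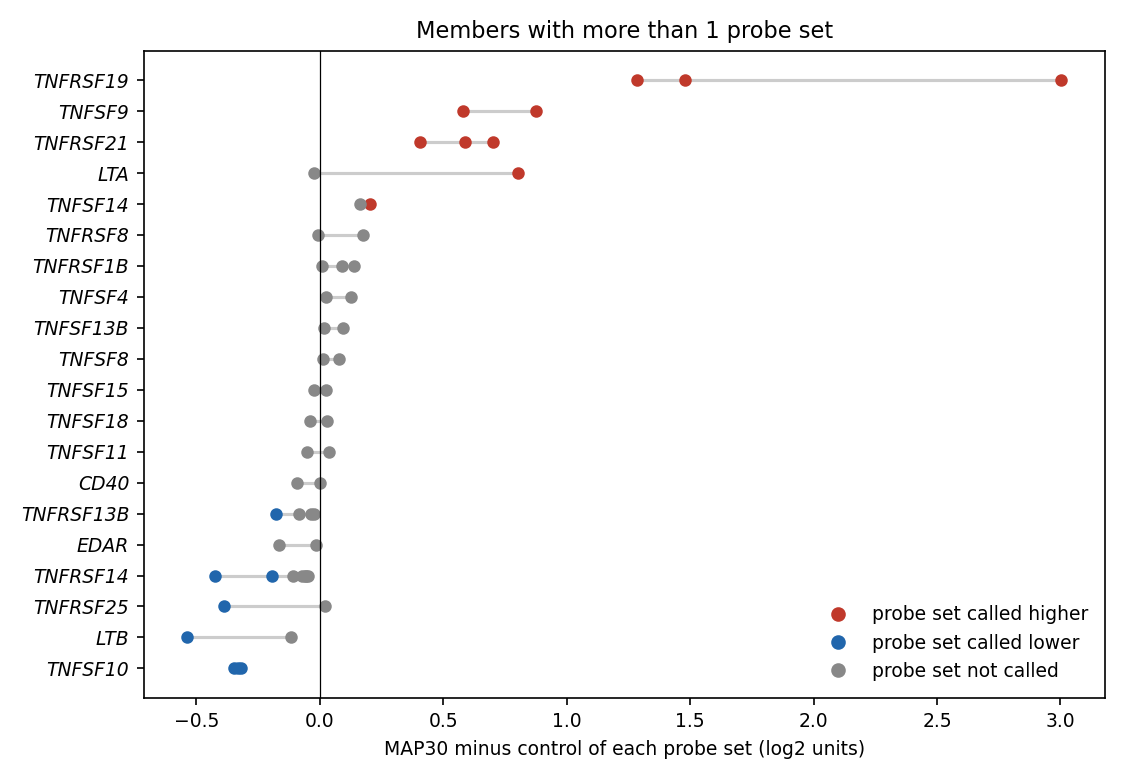
Log2 difference of MAP30 minus control for each single probe set of the 20 members that have more than 1; colour marks the probe set's own call, and grey lines join the lowest and highest. TNFRSF19 spans 1.28 to 3.00 and LTA -0.02 to 0.80, whereas the 3 probe sets of TNFSF10 lie between -0.35 and -0.32.

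The remaining members were not called. These were the ligand genes TNFSF8 (0.05), TNFSF15 (-0.00) and TNFSF18 (-0.00), and the receptor genes TNFRSF8 (0.08), TNFRSF18 (0.06), CD27 (0.03) and CD40 (-0.05), given as log2 differences. TNFSF8 and TNFRSF8 (the CD30 ligand and CD30) and TNFSF18 and TNFRSF18 (the GITR ligand and GITR) were therefore pairs without a call on either side. Over the 14 members not called, differences ran from -0.09 (EDAR) to 0.08 (TNFRSF8). Their 95% intervals lay between -0.21 (EDAR) and 0.25 (TNFSF13B) on the deposited scale. With hybridization-control or poly-A-control centring each of the 14 was called in some direction, where 14645 and 12660 of all genes were called.

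Further members are neighbours on their chromosomes. By RefSeq, TNFRSF18 lies beside TNFRSF4, TNFRSF8 beside TNFRSF1B and TNFSF18 beside TNFSF4 on chromosome 1, and TNFSF15 beside TNFSF8 on chromosome 9. In these 4 neighbouring pairs TNFRSF4 was the 1 member called, where 57.5% of all genes were called. That call was lost with hybridization-control centring and without some single arrays. Chromosome 1 held 9 members, among them TNFRSF9 at 4.04 and TNFRSF25 at -0.18.

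Of the family genes outside the rule, 8 of 9 were measured, with 1 higher and 3 lower. Among all genes 26.9% were higher and 30.6% lower. NGFR, the neurotrophin receptor, was higher by 0.48. FAS (-1.76), the death receptor, CD70 (-0.71), the ligand of CD27, and LTBR (-0.66), the lymphotoxin beta receptor, were lower. RELT, FASLG, EDA2R and EDA were not called, with differences from -0.08 to 0.04. The median over the 8 was -0.06, against -0.02 over all genes; it was -0.26 with hybridization-control centring, where 1 was higher and 7 were lower. Centring on poly-A controls gave 0.11, with 2 higher and 3 lower.

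Downstream of the receptors, 17 of 21 listed adaptors and regulators were measured, with 10 higher and 6 lower. Among all genes 26.9% were higher and 30.6% lower. TRAF1, an adaptor that TNFRSF9 and TNFRSF1B bind, was 14.2-fold higher (log2 difference 3.83; limma adjusted p = 1.04e-08). TNFAIP3, a deubiquitinating feedback inhibitor also known as A20, was 7.56-fold higher, CYLD, another such enzyme, 3.41-fold and TNIP2, a partner of TNFAIP3, 2.67-fold. TRAF5 (-0.68), OTULIN (-0.59), RBCK1 (-0.53), EDARADD (-0.48), TRADD (-0.47) and RNF31 (-0.25) were lower, RNF31 at -0.09 and uncalled with poly-A-control centring. EDARADD is the adaptor of EDAR. RBCK1 and RNF31 belong to the linear ubiquitin ligase, whose other subunit SHARPIN was higher by 0.10 but at -0.10, uncalled, with hybridization-control centring. The list's median was 0.19, against -0.02 over all genes, and -0.01 with hybridization-control centring, where 7 were higher and 7 lower.

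Receptors such as TNFRSF12A and CD40 engage the noncanonical NF-kB branch through the kinase NIK. Of 9 measured genes listed for it, 8 were higher and 0 lower, by limma with Benjamini-Hochberg adjustment. Over all genes 26.9% were higher and 30.6% lower. The list mixes genes of opposite roles, inhibitors among them. It also holds the inhibitor genes NFKBIA (0.80) and NFKBIE, which are not particular to this branch. The count therefore does not describe the activity of the branch. NFKB2, the precursor of the subunit p52, was 6.03-fold higher, the inhibitor gene NFKBIE 4.32-fold, MAP3K14, which encodes NIK, 3.39-fold and RELB 3.16-fold. TRAF3, the adaptor that holds NIK in check, was at -0.01 and not called. With hybridization-control centring TRAF3 was the 1 gene called lower, at -0.22, and with poly-A-control centring all 9 were higher. The median was 0.85, against -0.02 over all genes. These lists were chosen with results of these data known.

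**Figure D5:**
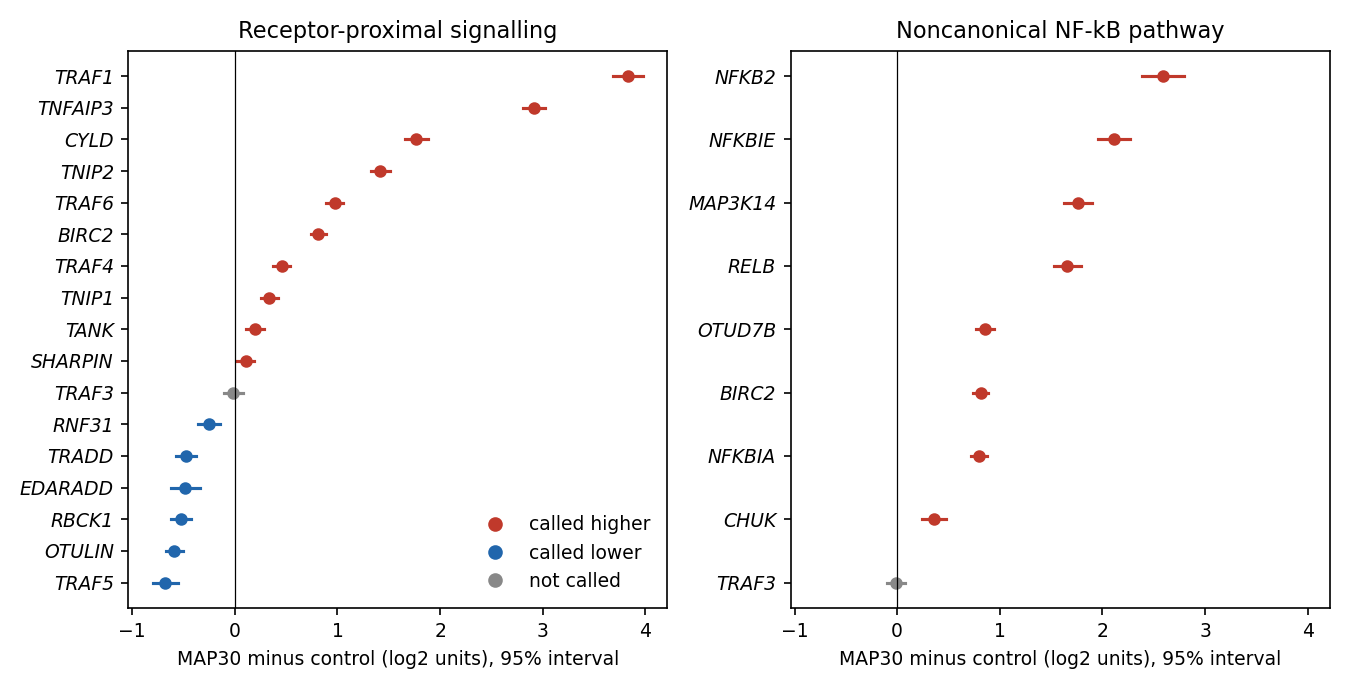
Log2 difference of MAP30 minus control for 17 receptor-proximal signalling genes (left) and 9 genes listed for the noncanonical NF-kB branch (right). Points are fitted differences, lines 95% intervals from limma, n = 3 arrays per group. TRAF1 stands at 3.83 and NFKB2 at 2.59, while TRAF3 is near 0; TNIP1, TANK and SHARPIN lose their calls with hybridization-control centring and RNF31 with poly-A-control centring.

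Genes that release or process the ligands split, with 3 of 10 higher and 4 lower, against 26.9% and 30.6% of all genes. ADAM10, a sheddase of several membrane proteins, was lower by -1.02 and TIMP3, the inhibitor of the TNF-converting enzyme ADAM17, by -1.80 (limma adjusted p = 3.13e-07 and 2.21e-07). FURIN, a protease that cleaves several ligand precursors, was higher by 0.50. ADAM17 itself was higher by 0.20 and SPPL2A by 0.16, though both stood below 0 and uncalled with hybridization-control centring, at -0.01 and -0.04. FRMD8 (-0.32) and RHBDF2 (-0.17), partners of ADAM17, were lower, but stood at -0.16 and -0.0099, both uncalled, with poly-A-control centring. The median was -0.02, the same as over all genes, and the split was 1 higher and 6 lower with hybridization-control and 6 higher and 2 lower with poly-A-control centring.

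Since many members are known from lymphocytes, markers of leukocytes were examined. Of 15 markers 14 were measured, with 4 higher and 2 lower as deposited, against 26.9% and 30.6% of all genes. Hybridization-control centring gave 3 and 10, and poly-A-control centring 11 and 1. The markers' mean centred value ran from 0.12 to 0.14 in the MAP30 arrays and from -0.15 to -0.12 in the control arrays. Their median log2 difference was 0.03, against -0.02 over all genes. The genes called lower were CORO1A (-0.78) and CD14 (-0.26), with CD14 at -0.10 and uncalled with poly-A-control centring. Those called higher were the myeloid integrin gene ITGAM (2.76), LCP1 (1.40), CD68 (0.45) and the B cell gene MS4A1 (0.11), the last at -0.10 and uncalled with hybridization-control centring. The pan-leukocyte marker PTPRC (0.03) and the T cell markers CD3E (0.00), CD3D (0.05) and CD2 (-0.05) were not called. No marker can be said to be absent in centred values, and their part in the members' differences was not tested. Of 12 genes listed as urothelial carcinoma markers 11 were measured. The 3 higher were GATA3 (2.12), EPCAM (0.96) and PPARG (0.91). The 3 lower were KRT7 (-1.03), KRT8 (-0.47) and VIM (-0.14). VIM, which is not specific to urothelium, stood at 0.03 and uncalled with poly-A-control centring. Hybridization-control centring gave 3 higher and 8 lower, poly-A-control centring 5 and 2. The listed urothelial carcinoma markers' mean ran from 0.07 to 0.12 in the MAP30 arrays and from -0.11 to -0.09 in the control arrays. Their median log2 difference was -0.05, opposite in sign to the difference of the means.

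Arrays of a group were alike: the SD of the difference between 2 arrays over all genes ran from 0.105 to 0.121 within groups and from 0.617 to 0.621 between groups. As a sign of RNA integrity and labelling, 3' minus 5' log2 values of the ACTB control probe sets were higher with MAP30 by 0.16, and those of GAPDH by 0.04. This measure has the same grouping as every comparison above, and its part was not tested. The number of arrays limits the precision.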

How the data were processed

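Expression was measured on 6 Affymetrix arrays, 3 of T24 cells given MAP30 and 3 of control cells, grouped by their titles. The authors deposited log2 expression values for 49395 probe sets, with RMA and MAS5 named in the submitters' processing notes without their role. The log base is not stated and was taken as 2. From the values, each probe set's median over the arrays is 0 to within 5.0e-07.

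Probe sets were named through GEO's platform annotation: 44988 had 1 gene symbol, 1832 several and 2473 none given here, beside 102 controls. The gene value was the mean over probe sets with 1 symbol. limma (version 3.58.1, R 4.3.3; lmFit, eBayes, two-sided) was fitted over all 18132 genes, with Benjamini-Hochberg adjustment and no further normalization, and was tested on simulated data. A second fit took single probe sets. Tables and figures used Python 3.11.15, pandas 2.3.3, numpy 2.4.6 and matplotlib 3.10.9.

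Members and lists were chosen with earlier results of these data known. All members are named, with array values for those called at 1.5-fold or more, for a short fixed set and for further called members. The other named genes are up to 4 with the largest change per list, or more where a count of few is accounted for. A variance trend and a filter on dim probe sets had been planned but need levels. Promoters came from RefSeq (GRCh38.p14); no genome build goes with the arrays. The TATA box was added to the motifs after the promoters had been seen. Alternatives were a replicate block, 4 other scalings, other probe set summaries, a robust variance, a 1.5-fold minimum and leaving out each array.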

Additional observations from a re-analysis of the deposited data

How the results depend on the processing

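As reported, 4 ligand genes were higher and 3 lower, and 6 receptor genes were higher and 4 lower. Poly-A-control centring gave 9 ligands and 11 receptors higher and 2 receptors lower, and hybridization-control centring 6 ligands and 11 receptors lower; over all genes 8906 were higher with the first and 11558 lower with the second, against 4878 and 5553. Probe sets of class _at or _a_at gave 2 receptors lower, with TNFRSF11A not measured. Requiring 1.5-fold left 1 ligand higher, 1 ligand lower, 3 receptors higher and 1 receptor lower, and 4006 genes in all. Calls by the majority of a gene's probe sets, an alternative chosen after seeing the data, gave 2 ligands higher and 2 receptors lower. Medians were -0.16 for both ligands and receptors with hybridization-control and 0.21 for both with poly-A-control centring; the receptor median ran from -0.0066 to 0.0989 when single arrays were left out, the extremes without MAP30 replicates 1 and 2.

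Members whose sign turned, with a call before or after, were, with hybridization-control centring, CD27 (-0.18), TNFRSF18 (-0.14), TNFRSF1B (-0.13), TNFRSF4 (-0.037) and TNFSF14 (-0.027), and, with poly-A-control centring, CD40 (0.12), TNFRSF13C (0.15), TNFRSF14 (0.026), TNFSF11 (0.16) and TNFSF18 (0.16). TNFRSF8, TNFSF4, TNFSF8 and TNFSF13B with the first, and EDAR, TNFRSF13B and TNFSF15 with the second, changed sign without a call on either scale. Each such centring subtracts 1 shift per array from every gene. By limma with the replicate number as a block, the counts were again 4, 3, 6 and 4, and no member's call changed. Deviations of same-numbered arrays correlated at -0.04, 0.07 and 0.01, so the numbers were not taken to pair the samples. A variance trend and a filter on dim probe sets were not run, as centred values hold no level, so signal over background is unknown.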

Other observations

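Genes with TNFAIP symbols, taken with LITAF, did not move as 1 set. The TNFAIP8L genes are named for likeness to TNFAIP8, and LITAF is not named for induction by TNF. Of 9 measured, 2 were higher and 5 lower by limma with Benjamini-Hochberg adjustment, against 26.9% and 30.6% of all genes. The list's median log2 difference was -0.15, against -0.02 over all genes, and 0.02 with poly-A-control centring. TNFAIP3 (2.92) and TNFAIP6 (0.63), a hyaluronan-binding protein, were higher. TNFAIP8L1 (-1.40), LITAF (-0.79), TNFAIP8 (-0.58), TNFAIP8L3 (-0.32) and TNFAIP1 (-0.15) were lower, though TNFAIP1 stood at 0.02, uncalled, with poly-A-control centring. TNFAIP2, a TNF-induced gene of endothelial cells, was at -0.02 and not called.

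Genes with a C1q domain, whose fold resembles that of TNF, moved little as deposited. Of 10 measured, EMILIN1 (0.19) was higher, C1QTNF2 (-0.51) was lower and 8 were not called. Among all genes 26.9% were higher and 30.6% lower. EMILIN1 was at -0.02 and uncalled with hybridization-control centring, where 0 were higher and 7 lower; with poly-A-control centring 4 were higher and 1 lower.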
